A study of Arabidopsis thaliana with 24 samples.

Results

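The transcriptome response of 7-day Arabidopsis thaliana cpd seedlings to brassinolide (BL), the most active brassinosteroid, was described over all expressed loci, outside the hormone lists as well as within them. The members were the 6 RNA-seq libraries that the labels name as 7-day cpd, 3 without treatment and 3 with BL, out of 24 libraries in the series. The cpd mutant carries a lesion in CPD, a cytochrome P450 of brassinosteroid biosynthesis, in both groups, so these plants make little of the hormone and can perceive what is added. The other 7-day libraries, used where stated, were 3 untreated and 3 BL-treated libraries of a triple mutant of the receptor BRI1 and its homologues BRL1 and BRL3 (allele bri1-701 in the design text, spelled brl1-701 in the sample labels), with the same age and treatment. All libraries were made from whole seedlings, and the labels state neither the dose nor the duration of BL. They also do not say whether replicate libraries stem from different cultures or plants, and p-values here therefore reflect variation among libraries that could be purely technical. In a whole seedling, fewer cells of a type and less RNA per cell cannot be told apart. The sample titles mark treated libraries with +bl and name no mock or solvent control for the others. Solvent or handling therefore cannot be told apart from BL in either genotype.

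Brassinosteroids are steroid hormones that bind the extracellular part of BRI1 at the plasma membrane. The signal inactivates the kinase BIN2 and lets the transcription factors BZR1 and BES1 act in the nucleus, where they repress the biosynthetic genes of the hormone itself and induce many genes of cell elongation. Mutants that lack the hormone are dwarfs with short, dark green organs, and added BL restores elongation.

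Of 32678 loci in the table, 18378 passed the filter on low counts and 14300 did not. BL raised 5098 of them (27.7% of the genes tested) and lowered 5426 (29.5%) in edgeR's quasi-likelihood test with a Benjamini-Hochberg adjusted p under 0.05, and the 3 untreated and 3 BL libraries did not overlap for 11257 genes (61.3%). Most changes were small. The median fold was 1.298 among the genes that rose and 1.36 among those that fell, and 72.6% and 63.2% of them changed by less than 1.5-fold. At least 2-fold changes were fewer, 508 up (2.76%) and 881 down (4.79%), and among at least 8-fold changes rises outnumbered falls, 46 against 33. With the scaling used here, falls were more frequent among abundant transcripts. Upper-quartile scaling turned the balance over all genes to 6258 higher and 4487 lower, and levels were not examined under it. Of the 2250 genes with a mean over 100 CPM (library-scaled counts, with normalisation factors applied), 33.4% rose and 46.9% fell, against 29.7% and 23.1% of the 5210 genes between 5 and 20 CPM. Library totals were 10206408 to 12531699 counts in the 6 libraries, and replicates at this age differed little more than counting error gives (1.13 to 1.51 times its variance). Under edgeR's test against a fold of 1.5, 668 genes were higher and 1246 lower.

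**Figure D1:**
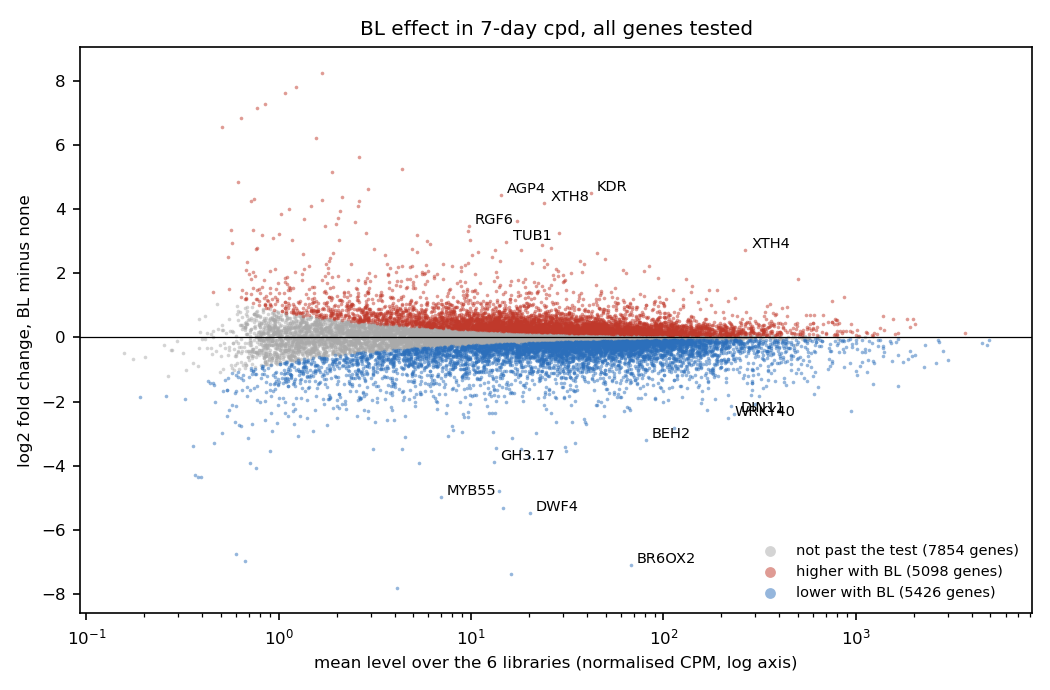
Each point is 1 of the 18378 genes tested, placed by its mean level over the 6 libraries of 7-day cpd (normalised CPM, log axis) and its log2 fold change with BL. The 5098 genes that rose are red, the 5426 that fell are blue and the 7854 others are grey, and the called genes lie close to 0 at high levels.

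The 20 largest rises of genes with a symbol and at least 5 CPM were between 4.83-fold and 22.8-fold, the first of them being KDR. KDR (AT1G26945, chromosome 1), also called PRE6, is a small helix-loop-helix protein that frees growth-promoting factors from their inhibitors. It had 3.54, 3.81 and 3.15 CPM in the untreated libraries and 79.4, 76.8 and 84.3 CPM with BL. All BL libraries lay over the untreated ones by more than an order of magnitude. LUP1 (AT1G78970), a triterpene synthase that makes lupeol, went from 2.22, 1.60 and 2.56 CPM to 17.3, 16.7 and 19.0 CPM (8.21-fold higher). TUB1, a beta-tubulin, had 3.29, 3.51 and 3.64 CPM without BL and 27.6, 26.3 and 27.3 CPM with it (7.77-fold higher). The Aux/IAA repressors IAA19 and SHY2, which auxin induces and which block auxin responses, rose 8.01-fold and 6.53-fold. IAA19 stood at 1.32, 1.404 and 1.18 CPM without and 10.4, 10.9 and 10.1 CPM with BL.

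Others of the 20 encode wall and cell surface proteins. ENODL8, an early nodulin-like protein with a plastocyanin domain, had 6.75, 6.52 and 6.49 CPM in untreated seedlings and 44.3, 47.5 and 44.6 CPM with BL. ATCSLA09, a glucomannan synthase, rose 5.21-fold from 4.53 ± 0.454 to 23.7 ± 0.599 CPM (mean ± SD, n = 3). SKS6, a member of the SKU5-similar family of multicopper oxidase-like proteins, rose 4.83-fold and the leucine-rich repeat protein gene DRT100 rose 6.24-fold. The fasciclin-like protein gene FLA1 and the expansin-like gene EXLA2 rose 6.33-fold and 6.58-fold. Among loci without a symbol and with at least 5 CPM the largest rises were those of AT5G45670, annotated as a GDSL-type lipase, and AT3G07010, annotated as pectin lyase-like. AT5G45670 had 2.88, 3.01 and 1.77 CPM without and 31.7, 32.0 and 32.2 CPM with BL, a 12.4-fold rise. Groups that did not overlap were a condition for naming these genes, met by 61.3% of all genes tested. A call in edgeR's quasi-likelihood test was another condition. The largest adjusted p of that test among the genes named in this and the preceding paragraph was 8.74e-25.

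The CPD transcript itself was detected in all libraries, at 69.3, 64.3 and 71.1 CPM without and 11.1, 9.36 and 10.7 CPM with BL, and as the labels do not give the nature of the lesion its level does not check the genotype. The 20 largest falls of genes with a symbol and at least 5 CPM were between 5.24-fold and 137-fold. BR6OX2, which makes BL itself, had 134, 129 and 139 CPM in untreated seedlings and 1.52, 0.685 and 0.665 CPM with BL, and CYP90D1, a hydroxylase of the same pathway, had 38.9, 39.9 and 37.5 CPM against 4.72, 4.11 and 5.90 CPM. ACS7, an ACC synthase of ethylene biosynthesis, fell 7.65-fold from 22.1, 23.3 and 23.3 CPM to 3.12, 2.97 and 2.83 CPM. Its paralogue ACS11 (AT4G08040, chromosome 4), chosen after its values were seen, had 267 counts over the untreated libraries and 1 count over the BL libraries, a ratio of 317 between the groups (95% interval of the counts 56.4 to 12561). Both ACC synthase genes thus fell, ACS11 nearly out of detection, while in the triple mutant ACS11 rose (log2 0.70 ± 0.09, SE).

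UGT73B4, a glycosyltransferase gene that pathogens and oxidative stress induce, went from 55.8, 54.3 and 57.7 CPM to 5.48, 5.33 and 4.90 CPM (10.6-fold lower). HAT1 and HB53, homeodomain-leucine zipper factors, fell 6.22-fold and 7.35-fold. HAT1 had 67.7, 70.0 and 64.2 CPM without and 10.7, 12.1 and 9.56 CPM with BL. ERF12 encodes a repressor of the ERF family and fell 7.74-fold, from 15.8 ± 0.706 to 2.03 ± 0.362 CPM (mean ± SD, n = 3). ABI5, the bZIP factor of abscisic acid responses in seeds and seedlings, fell 5.28-fold from 15.3, 14.6 and 16.0 CPM to 3.12, 2.74 and 2.83 CPM. DIN11, a dioxygenase gene that darkness and sugar depletion induce, stood at 399, 385 and 391 CPM without and 72.2, 75.3 and 77.2 CPM with BL. The subtilase gene SBT3.3, which acts in immune priming, and the P450 gene CYP76C2 fell 5.54-fold and 5.81-fold. Of the loci without a symbol and with at least 5 CPM, AT5G57785, which encodes an uncharacterized protein, had 31.3, 32.9 and 32.2 CPM without BL and 0.228, 0.228 and 0.0831 CPM with it. The protein phosphatase 2C gene AT5G66080 fell 27.7-fold, and the largest adjusted p of edgeR's quasi-likelihood test among the genes named in this paragraph was 1.24e-26. Standard errors (SE) quoted below were calculated back from the test, and they are likely too small for genes left with few counts, such as BR6OX2.

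**Figure D2:**
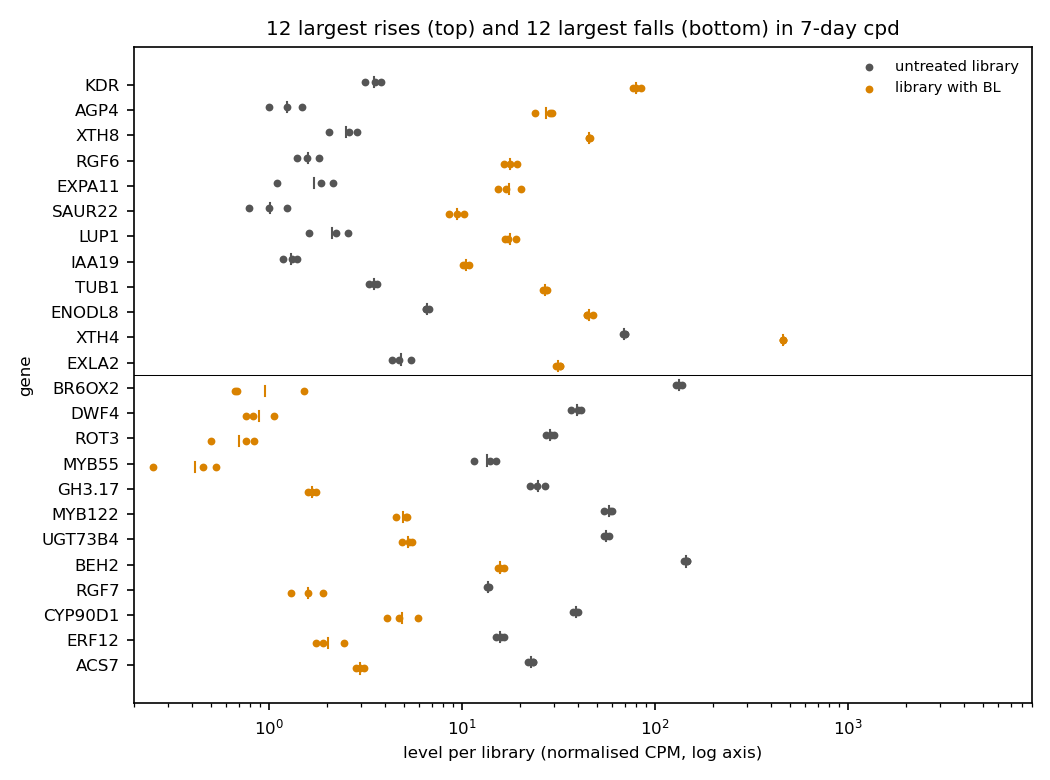
Levels of the 12 largest rises (top) and the 12 largest falls (bottom) in each of the 6 libraries of 7-day cpd, in normalised CPM on a log axis, with grey points for untreated and orange points for BL-treated libraries and a short line at each group mean. The untreated and BL-treated points of each gene lie apart, which the choice of genes required. For KDR they span 3.15 to 3.81 CPM against 76.8 to 84.3 CPM.

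Genes at 0 counts in all 3 libraries of a group and past the test numbered 9. In untreated seedlings 7 were at 0, of which AT1G29490 had 43, 37 and 48 counts with BL (at least 36.0-fold higher against a floor of 3 counts over the untreated group), SAUR27 29, 32 and 22 counts (at least 23.3-fold) and SAUR26 22, 19 and 24 counts (at least 18.3-fold). SAUR proteins promote acid growth by keeping plasma membrane proton pumps active, and several of these genes are near copies whose counts cannot be separated with certainty. With BL 2 loci were at 0, AT3G23040 with 20, 11 and 13 counts in the untreated libraries (at least 17.4-fold lower) and IDL3, a gene of the IDA-like signal peptides, with 11, 11 and 16 counts (at least 15.0-fold lower). A level of 0 allows up to 0.228 to 0.301 CPM in a library at this depth, and this floor covers counting error only.

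Because BZR1 and BES1 are known to bind the brassinosteroid response element and E-boxes, promoters were searched on both strands for CGTGTG and CGTGCG (response element), CATGTG (E-box) and CACGTG (G-box), from 250 bases before to 50 bases after the annotated start in the RefSeq annotation of TAIR10.1. The E-box CATGTG occurred in 26.7% of 495 promoters of genes that rose at least 2-fold, against 13.4% of 868 promoters of genes that fell at least 2-fold, 11.9% of 7593 promoters of genes not past the test and 12.9% of all 27443 protein-coding promoters. The response element showed the opposite arrangement. Either form was found in 14.6% of the promoters of genes that fell, 7.27% of those of genes that rose and 8.19% of all promoters. CGTGTG alone was in 12.1%, 6.26% and 6.52% of them, and CGTGCG alone in 3.46%, 1.21% and 1.96%. The G-box, which overlaps CGTGTG in the run CACGTGTG, was in 12.8% of promoters of falling genes, 5.66% of those of rising genes and 7.68% of all. These shares describe letters in a window and were not tested.

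The 250 bases before the start of 7 genes are printed, 5′ to 3′ on the strand of the gene, in TAIR10.1 coordinates. They are the first 3 of the rising genes named by fold that hold the E-box, the first 3 of the falling ones that hold a response element and whose window touches no other annotated gene, and BR6OX2, the largest fall among the genes named by fold (with a symbol and at least 5 CPM), which holds none of the searched motifs in this window. The rising genes are KDR (chr1:9350910-9351159, plus strand), EXPA11 (chr1:6999840-7000089, minus strand) and SAUR22 (chr5:5975088-5975337, minus strand). The falling genes are BEH2 (chr4:17334356-17334605, minus strand), WRKY40 (chr1:30383311-30383560, plus strand), ABI5 (chr2:15207637-15207886, minus strand) and BR6OX2 (chr3:11810476-11810725, plus strand). Capitals mark the searched motifs on either strand, all other bases being in lower case.
KDR: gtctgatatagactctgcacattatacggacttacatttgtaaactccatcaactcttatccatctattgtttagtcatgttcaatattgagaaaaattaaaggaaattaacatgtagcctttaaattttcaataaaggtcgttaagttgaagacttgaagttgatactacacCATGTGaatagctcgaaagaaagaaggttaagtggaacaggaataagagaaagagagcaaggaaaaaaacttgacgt
EXPA11: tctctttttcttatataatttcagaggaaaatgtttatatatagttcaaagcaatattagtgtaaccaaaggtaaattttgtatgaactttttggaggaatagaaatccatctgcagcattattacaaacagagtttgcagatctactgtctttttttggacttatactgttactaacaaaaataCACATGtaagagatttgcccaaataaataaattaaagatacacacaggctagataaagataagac
SAUR22: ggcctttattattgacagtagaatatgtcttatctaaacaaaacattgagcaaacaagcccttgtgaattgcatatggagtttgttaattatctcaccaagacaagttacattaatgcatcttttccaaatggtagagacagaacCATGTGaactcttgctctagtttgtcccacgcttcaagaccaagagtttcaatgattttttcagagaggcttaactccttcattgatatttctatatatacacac
BEH2: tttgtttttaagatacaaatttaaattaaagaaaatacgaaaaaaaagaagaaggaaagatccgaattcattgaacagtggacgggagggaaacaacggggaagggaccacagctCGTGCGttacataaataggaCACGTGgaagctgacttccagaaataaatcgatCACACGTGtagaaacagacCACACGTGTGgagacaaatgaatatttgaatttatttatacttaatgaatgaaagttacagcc
WRKY40: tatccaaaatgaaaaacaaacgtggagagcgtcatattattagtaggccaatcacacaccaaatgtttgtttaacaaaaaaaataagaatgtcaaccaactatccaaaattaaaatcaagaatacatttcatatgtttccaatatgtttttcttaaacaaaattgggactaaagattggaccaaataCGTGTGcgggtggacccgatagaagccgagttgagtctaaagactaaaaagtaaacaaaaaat
ABI5: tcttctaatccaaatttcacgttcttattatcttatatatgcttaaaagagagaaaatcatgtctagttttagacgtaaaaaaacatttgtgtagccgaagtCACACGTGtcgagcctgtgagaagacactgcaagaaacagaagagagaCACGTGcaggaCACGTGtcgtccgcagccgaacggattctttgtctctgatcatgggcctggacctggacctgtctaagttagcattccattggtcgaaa
BR6OX2: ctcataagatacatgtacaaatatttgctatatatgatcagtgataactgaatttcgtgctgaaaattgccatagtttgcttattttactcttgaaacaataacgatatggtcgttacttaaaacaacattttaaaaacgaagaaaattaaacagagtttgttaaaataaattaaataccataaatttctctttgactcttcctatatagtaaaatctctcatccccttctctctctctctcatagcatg
In BEH2, a homologue of BZR1 that fell from 147, 148 and 142 CPM to 16.4, 15.7 and 15.4 CPM, G-boxes began 115, 80 and 61 bases before the start, and those at 80 and 61 bases were joined to CGTGTG. ABI5 held 3 G-boxes, which began 146, 100 and 89 bases before the start. In KDR and EXPA11 the E-box began 77 and 65 bases before the start. Of the 20 rises named by fold 8 held the E-box in the 250 bases before the start and 3 held a response element. Of the 20 falls 3 held the E-box and 4 a response element, so the response element hardly set these genes apart. In this window 11.1% of all protein-coding promoters held the E-box and 6.71% a response element.

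Genes of wall-loosening enzymes did not move as a block. The XTH enzymes cut and rejoin the xyloglucan that ties cellulose microfibrils together. Of 33 loci 24 were tested, 11 rose and 10 fell, with 9 rises and 4 falls of at least 2-fold against 2.76% and 4.79% of all genes. XTH4 had 69.7, 70.3 and 68.5 CPM without and 462, 459 and 459.8 CPM with BL. XTH16 went from 26.8, 24.3 and 25.6 CPM to 102, 105 and 102 CPM (4.003-fold higher). The abundant XTH24 and XTH15 moved the other way, XTH24 from 1786, 1801 and 1819 CPM to 659, 656 and 656 CPM and XTH15 from 687, 668 and 686 CPM to 265, 262 and 255 CPM. The summed level of the family was lower with BL, 4851 to 4874 CPM in untreated libraries against 3683 to 3716 CPM, although rises outnumbered falls. Expansins loosen the wall without cutting polymers. Of 33 loci 14 were tested, 10 rose and 2 fell, and EXPA8 had 3 counts over the untreated libraries and 195 with BL, a ratio of 54.8 (95% interval of the counts 18.5 to 267.9). EXPA10 was among the exceptions, at 47.0, 52.2 and 51.4 CPM without and 27.7, 24.7 and 25.7 CPM with BL.

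Genes of wall synthesis rose in the primary-wall branch. Of 12 tested cellulose synthases and partners 9 rose and 0 fell (median log2 fold change 0.57, against 0.00 over all genes tested). The primary-wall subunit genes CESA1, CESA2, CESA5, CESA6 and CEV1 (CESA3) all rose, with a median of 0.71, whereas none of the 3 genes of the secondary-wall complex, CESA4, IRX3 (CESA7) and IRX1 (CESA8), passed the test, with log2 values of -0.26 to 0.20. CEV1 went from 452, 469.7 and 458 CPM to 736, 765 and 751 CPM. COB, a membrane-anchored protein needed for oriented cellulose deposition, rose 2.18-fold from 139, 132 and 137 CPM to 296, 300.3 and 295 CPM. Hemicellulose genes rose in 9 of 12 cases with 1 fall, among them the xyloglucan glucan synthase gene CSLC04 (log2 0.59 ± 0.03, SE). Pectin genes rose in 22 of 39 tested cases and fell in 7, and the pectin methylesterase gene AT2G45220 fell 2.54-fold while PME44 rose 2.48-fold. Xylem and secondary-wall markers rose in 1 and fell in 2 of 12 tested cases, and their summed level was 139 to 141 CPM without and 122 to 129 CPM with BL.

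Arabinogalactan proteins, heavily glycosylated proteins of the wall and cell surface, gave some of the largest changes. Of 31 tested genes 21 rose and 4 fell, including 14 rises and 2 falls of at least 2-fold, and the median was 0.76. AGP9 had 30.0, 30.3 and 27.9 CPM without and 133, 137 and 146 CPM with BL. FLA9, a fasciclin-like member, went from 95.2, 106 and 98.0 CPM to 277, 276 and 280.3 CPM (2.79-fold higher), and AGP7 rose 4.08-fold. The 4 genes that fell were AGP1, AGP2, AGP10 and AGP12 (log2 -0.98, -1.21, -1.14 and -0.47). Genes of extensins and related proteins, which crosslink the wall, had 5 rises and 5 falls among 14 tested. These shares (35.7% each) were not far from those of all genes (27.7% and 29.5%). LRX2 was 2.34-fold higher and EXT4 1.56-fold lower.

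Tubulin genes rose almost throughout, and actin genes did not share this. Cortical microtubules guide cellulose synthase and so the direction of growth. All 9 beta-tubulin genes and 5 of 6 alpha-tubulin genes rose, with a median over the 15 of 0.71. TUB5 had 57.0, 57.8 and 60.4 CPM without and 202, 206 and 204 CPM with BL, and TUA3 had 117, 120.3 and 117 CPM without and 236, 237 and 232 CPM with it. The alpha-tubulin gene TUA1 was the exception (log2 -0.02 ± 0.05, SE). In the actin list 10 of 30 tested genes rose and 10 fell, shares near those of all genes (27.7% and 29.5%). The vegetative actins ACT2 and ACT7 rose 1.33-fold and 1.19-fold and the formin gene AFH1, an actin nucleator, rose 2.37-fold, while ADF5, of the actin-depolymerising factor family, fell 2.35-fold from 41.6, 42.4 and 43.1 CPM to 20.2, 18.04 and 15.6 CPM.

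Of 26 tested aquaporin genes 12 rose and 6 fell (3 without untreated replicate 3). The tonoplast channel gene DELTA-TIP carried one of the largest gains in level of all genes, from 507, 511 and 508 CPM to 1246, 1209.7 and 1201 CPM, and TIP2;2 rose 2.88-fold. The plasma membrane channel gene PIP2A had 601, 595 and 594 CPM without and 848, 828 and 813 CPM with BL. Proton pump and potassium transport genes rose in 11 and fell in 16 of 40 tested cases, where all genes rose in 27.7% and fell in 29.5%, and upper-quartile scaling turned the split to 15 and 13. HA2, one of the main plasma membrane proton pumps that acidify the wall, fell 1.68-fold from 695, 735 and 706 CPM to 419, 424 and 426 CPM, and HA1 fell 1.34-fold. Potassium uptake genes were among the falls, with KUP6 at 49.6, 47.4 and 46.5 CPM without and 15.5, 17.4 and 18.8 CPM with BL (2.79-fold lower).

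The cuticle genes formed one of the clearest groups. Waxes and cutin seal the epidermis of shoot organs. Of 45 loci 35 were tested, 27 rose and 2 fell, with a median of 0.49. CYP86A2, a fatty acid hydroxylase of cutin synthesis, had 59.3, 60.9 and 58.3 CPM without and 165, 169 and 158 CPM with BL. CER2, needed for very-long-chain wax precursors, had 56.1, 57.8 and 61.1 CPM and 123, 117 and 118 CPM, and the lipid transfer protein gene LTPG1 rose 2.01-fold. The 2 falls were slight, and only 1 remained a call without untreated replicate 1 or 2 or BL replicate 1 or 2 (CER9, log2 -0.07, and LACS4, log2 -0.16). With BL, 4 of the same genes rose and 14 fell in the triple mutant (11.4% and 11% of all genes did), and the genotype difference passed the test for 26 genes in the positive and 2 in the negative direction (18.7% and 22.3% of all genes). CYP86A2 had a difference of 1.69 ± 0.07 (SE, log2, cpd minus triple mutant, edgeR's quasi-likelihood interaction test, adjusted p = 3.34e-34) and CER2 one of 1.37 ± 0.06 (adjusted p = 1.04e-29, same test). Stomatal lineage markers rose in 4 and fell in 0 of 8 tested cases. Their summed level was 41.8 to 46.3 CPM without and 58.2 to 62.2 CPM with BL. Guard cell markers rose in 5 and fell in 1 of 11, CYP86A2 being one of the rises. Their summed level was lower with BL, 2962 to 3064 CPM without and 2776 to 2906 CPM with it. The part of both marker sets in the cuticle result was not tested.

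Genes of lipid supply also rose more often than they fell, though less uniformly than the cuticle genes. Plastid fatty acid and membrane lipid genes rose in 18 and fell in 6 of 28 tested cases. ACP2, an acyl carrier protein gene, rose 1.97-fold from 35.7, 31.4 and 37.1 CPM to 68.6, 68.0 and 69.0 CPM, and CAC2, a subunit of plastid acetyl-CoA carboxylase, rose 1.42-fold. Sterol and isoprenoid genes rose in 15 and fell in 5 of 26 cases. CAS1, which makes the first cyclic precursor of plant sterols, rose 1.56-fold, and DWF1, whose product makes the sterol precursors of brassinosteroids, rose 1.41-fold. Within families of sterol enzymes the genes diverged. SMO2-2 fell 3.35-fold from 24.0, 26.4 and 25.3 CPM to 6.39, 8.45 and 7.64 CPM while SMO1-1 and SMO1-2, which act earlier in the pathway, rose (log2 0.63 and 0.77), and SMT1 rose (log2 0.48) while SMT2 fell (log2 -0.44).

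DNA replication genes had the highest median of the 57 lists, and the genes of mitosis did not share it. Of 33 tested replication genes 26 rose and 2 fell, with 17 rises and 1 fall of at least 2-fold and a median of 1.13. MCM2 to MCM7 make the replicative helicase, and all 6 genes rose by log2 1.51 to 1.97. MCM5 had 4.12, 4.01 and 3.94 CPM without and 11.6, 11.49 and 11.2 CPM with BL. Origin recognition and licensing genes rose in 7 of 9 tested cases. The replication factor gene CTF18 had the largest rise of the list (log2 2.28 ± 0.27, SE), from 0.793 ± 0.169 to 3.96 ± 0.733 CPM (mean ± SD, n = 3). Ribonucleotide reductase supplies the DNA precursors, and its large subunit gene RNR1 went from 21.1, 19.5 and 19.2 CPM to 34.2, 33.3 and 38.2 CPM. Its small subunit genes diverged, with TSO2 at 6.67, 4.41 and 5.12 CPM without and 15.0, 15.2 and 14.2 CPM with BL and RNR2A at 18.1, 17.4 and 16.4 CPM without and 7.99, 8.98 and 7.40 CPM with it.

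Of 32 tested genes of mitosis and cytokinesis 5 rose, 5 fell and 22 did not pass the test. Without BL replicate 1 the rises were 3, and without BL replicate 3 the falls were 2. B-type cyclins, which act at entry into mitosis, rose in 1 and fell in 1 of 7 tested cases, and PLE, a microtubule-associated protein of the cytokinetic array, fell 1.66-fold. Core histone and linker histone genes rose in 2 and fell in 8 of 23 cases, HTA7 from 42.4, 41.0 and 41.5 CPM to 20.1, 20.1 and 23.2 CPM. Among D-type cyclins and inhibitors of the cycle 5 rose and 6 fell of 23 (21.7% and 26.1%), near the 27.7% and 29.5% of all genes. Of the 6 KRP inhibitor genes in the list, which lacks KRP4, 4 fell (KRP2, ICK1, ICK3 and ICK6) and 1 rose. KRP2 had 10.9, 9.43 and 10.5 CPM in untreated seedlings and 5.10, 4.72 and 4.15 CPM with BL (2.21-fold lower). Summed levels were low and the groups lay apart for replication genes, 152 to 161 CPM without and 249.7 to 252 CPM with BL, whereas those of mitotic genes overlapped, 163 to 165 and 165 to 169.9 CPM. In the triple mutant 2 replication genes rose and 1 fell (11.4% and 11% of all genes did). The genotype difference was positive for 24 of the 33 and negative for 2 (18.7% and 22.3% of all genes). Shoot meristem and organ primordium markers rose in 5 and fell in 1 of 9 tested cases, with summed levels of 145 to 159 CPM against 186 to 194 CPM, and their part in the replication result was not tested. With a minimum count of 50, under which fewer genes are tested, 15 replication genes rose.

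**Figure D3:**
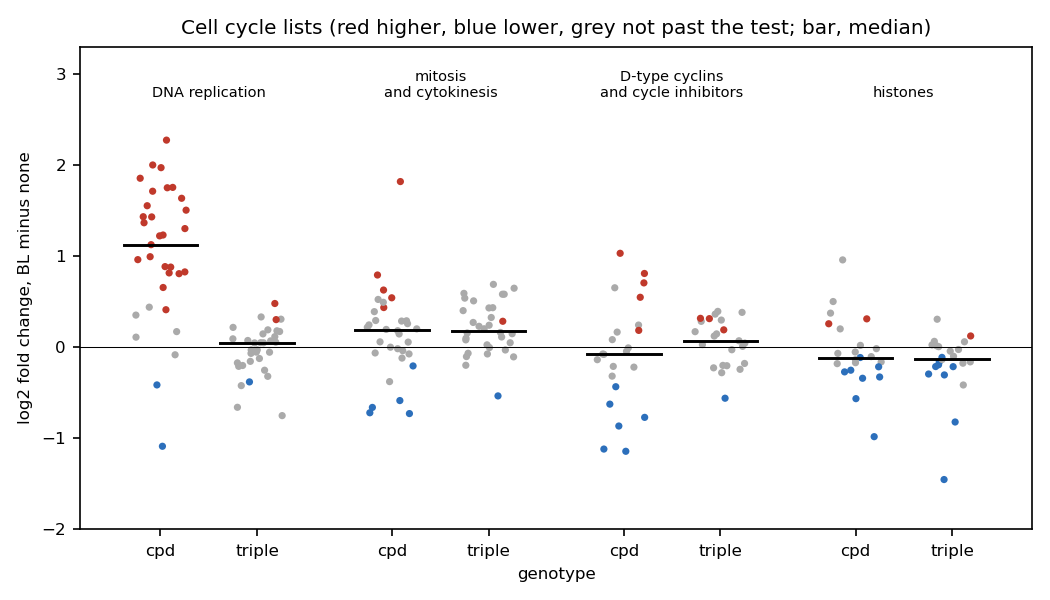
Log2 fold change with BL of each tested gene of 4 cell cycle lists in 7-day cpd and in the 7-day triple mutant, with red points for genes that rose, blue for those that fell, grey for those not past the test and a bar at the median. The median of DNA replication genes is 1.13 in cpd and 0.05 in the triple mutant, while mitotic genes have medians of 0.19 and 0.18.

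Plastid lists rose more often than they fell, by small and even amounts for ribosomal proteins and over a wider range for the others. All 14 tested plastid ribosomal protein genes rose, by log2 0.22 to 0.39, and 13 of 18 Calvin cycle genes rose with 1 fall. RBCS2B, a small subunit gene of Rubisco, went from 229.8, 234 and 234 CPM to 479, 475 and 484 CPM, and PRK, which regenerates the CO2 acceptor, rose 1.54-fold. The 37 of 45 light-harvesting and photosystem genes that rose stood against 0 falls, or 1 fall without untreated replicate 1 or 3 or BL replicate 3. CAB1 went from 1578, 1593 and 1595 CPM to 2392, 2372 and 2373 CPM and LHCB4.2 rose 1.74-fold. CAB and RBCS genes are near copies of each other, so the values of single members are uncertain. Chlorophyll synthesis genes rose in 17 and fell in 3 of 26 cases, with PORB 1.496-fold higher and HEMA2 1.57-fold lower. Starch genes rose in 22 and fell in 8 of 36, led by the beta-amylase gene BMY3 (1.96-fold higher). All 8 mesophyll markers, which are themselves photosynthesis genes, rose, with a summed level of 5365 to 5470 CPM against 7463 to 7573 CPM, and their part in the plastid result was not tested.

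Genes of protein synthesis in the cytosol changed less. Those of the proteasome and of autophagy, which both break down proteins, moved in opposite directions. Of all genes 27.7% rose and 29.5% fell. Of the 28 cytosolic ribosomal protein genes matched by name, 15 rose and 1 fell, with a median of 0.08. Ribosome biogenesis genes rose in 14 and fell in 1 of 24 cases (median 0.17), with 0 falls without untreated replicate 1 or 3 or BL replicate 3. The 1 cytosolic fall (2 without BL replicate 1) was SAG24, a form of ribosomal protein L10 associated with senescence, from 667, 654 and 659 CPM to 407, 397 and 409 CPM, and FIB2, a nucleolar methyltransferase gene, rose 1.51-fold. Proteasome subunit genes rose in 16 and fell in 4 of 38 cases (2 falls without untreated replicate 1 or BL replicate 1 or 3), all by less than 2-fold. Autophagy genes, which break down cell contents in starvation and senescence, did not rise in any of 31 tested cases and fell in 23, with a median of -0.28. ATG8H had 75.4, 76.7 and 75.4 CPM without and 36.7, 38.3 and 38.9 CPM with BL, and 8 of 9 ATG8 genes fell. The triple mutant had 0 rises and 3 falls among autophagy genes, where 11.4% and 11% of all genes rose and fell. The genotype difference was negative for 16 of the 31 (22.3% of all genes).

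Nitrogen, carbon starvation, sugar transport and sulfur genes fell more often than they rose. Nitrogen genes rose in 13 and fell in 25 of 45 tested cases, against 27.7% and 29.5% of all genes. Both nitrate reductase genes fell, NIA1 from 934, 964 and 937 CPM to 322, 333 and 315 CPM and NIA2 from 2898, 2997 and 2995 CPM to 1571, 1610.4 and 1542 CPM. The nitrate transporter gene NRT1.8 fell 3.51-fold from 440.1, 447 and 448 CPM to 127, 125 and 127 CPM. GDH2, a glutamate dehydrogenase gene used when carbon is short, fell 1.62-fold from 3750.3, 3721 and 3711 CPM to 2312, 2317 and 2259.7 CPM. ADC2, an arginine decarboxylase gene of polyamine synthesis, had one of the largest losses in level of all genes, from 2381, 2538 and 2412 CPM to 841, 848 and 866 CPM.

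Markers of carbon starvation fell in 13 and rose in 4 of 20 cases. The EXORDIUM-like family was divided, EXL2 falling from 926, 932 and 940.3 CPM to 277, 273 and 276 CPM and EXL4 4.77-fold, while EXL3, EXL5 and EXL7 rose (log2 1.07, 1.16 and 1.39). Sugar transport genes rose in 6 and fell in 16 of 27 cases. STP1, a hexose uptake transporter gene, rose 1.499-fold from 1235, 1265 and 1228 CPM to 1894, 1832 and 1859 CPM, while MSS1 (STP13), which is induced by stress, fell 1.76-fold from 515, 502 and 512 CPM to 287, 291 and 292 CPM. Sulfur genes fell in 11 and rose in 4 of 21 cases with a median of -0.44. SIR, the sulfite reductase gene, went from 235, 247 and 230.3 CPM to 119.6, 119 and 116 CPM and APS1, which activates sulfate, from 1183, 1185 and 1197 CPM to 675, 693 and 691 CPM. In the triple mutant 9 of the sulfur genes rose with BL and 0 fell (median 0.21), against 11.4% and 11% of all genes. The genotype difference was negative for 11 of 21 (22.3% of all genes). APR1 shows it, with log2 -0.79 ± 0.05 in cpd, 0.53 ± 0.05 in the triple mutant and a difference of -1.32 ± 0.07 (SE, edgeR's quasi-likelihood interaction test, adjusted p = 4.55e-26). Iron genes rose in 4 (1 without untreated replicate 1) and fell in 8 of 17 cases, the ferritin gene FER1 1.399-fold lower, and phosphate genes rose in 4 and fell in 5 of 17, near the shares of all genes. Root markers fell in 3 and rose in 1 of 9 tested cases, and their summed level was 219.7 to 231 CPM without and 165 to 173 CPM with BL. Their part in the results on nutrient uptake was not tested.

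Phenylpropanoid genes, which make lignin and related phenolics, had the lowest median of the 57 lists, -1.001. Of 22 tested genes 0 rose and 17 fell, 11 of them by at least 2-fold. The entry enzymes PAL1 and PAL2 went from 829, 857 and 829 CPM to 354, 365 and 366 CPM and from 309, 311 and 301 CPM to 116, 116 and 118 CPM. C4H, the next step, had 1349.5, 1351 and 1362 CPM without and 638, 672 and 652 CPM with BL. CAD5, which makes lignin monomers, fell 2.51-fold from 515, 497 and 486 CPM to 201, 193 and 202 CPM. Their summed level went from 4753 to 4789 CPM to 2261 to 2299 CPM. In the triple mutant 12 of these genes fell and 2 rose with a median of -0.22, against 11% and 11.4% of all genes. The genotype difference was negative for 17 and positive for 1 (22.3% and 18.7% of all genes). PAL1 changed by log2 -0.41 ± 0.03 in the triple mutant (SE), and the difference was -0.80 ± 0.04 (edgeR's quasi-likelihood interaction test, adjusted p = 8.75e-30). Flavonoid genes, of which 6 of 24 loci were expressed enough to be tested, fell in 5 cases, and 6 of 7 tested class III peroxidase genes fell, AT5G64120 from 1404, 1431 and 1404 CPM to 618, 632 and 628 CPM. Carotenoid genes rose in 6 and fell in 4 of 17 (3 and 4 with DESeq2), BETA-OHASE 2 (a beta-carotene hydroxylase) being 1.98-fold lower.

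Families that conjugate and oxidise foreign and endogenous compounds fell as well. Of 31 tested tau and phi glutathione transferase genes 26 fell and 1 rose, with a median of -0.56. GSTU4 had 238, 240.1 and 247 CPM without and 73.8, 78.0 and 73.3 CPM with BL, and GSTU19 fell 1.75-fold in cpd while it rose in the triple mutant (log2 0.56 ± 0.02, SE). UDP-glycosyltransferase genes fell in 31 and rose in 5 of 46 cases (2 rises without untreated replicate 1 or BL replicate 2, 3 without BL replicate 3), 17 of the falls being at least 2-fold. UGT76B1, which glycosylates immune signals, went from 109.7, 108 and 107 CPM to 22.3, 24.1 and 23.5 CPM, and UGT85A1, which glycosylates cytokinin, from 805, 794 and 804 CPM to 317, 315 and 312 CPM. Cytochrome P450 genes fell in 58 and rose in 29 of 133 cases, with 25 falls and 5 rises of at least 2-fold. CYP94B3, which inactivates the jasmonate hormone, fell 3.68-fold. The blue-copper-binding protein gene BCB and the sulfotransferase gene ST2A lost many counts from high levels, BCB from 2259.6, 2300.5 and 2312 CPM to 1445, 1449 and 1392 CPM.

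Transcription factor families linked to stress fell far more often than they rose. Of 57 tested NAC genes 0 rose (1 with upper-quartile scaling) and 32 fell, ATAF2 from 642, 638 and 631 CPM to 232, 233 and 219 CPM and NAC083 from 199.9, 198 and 197 CPM to 65.7, 68.4 and 64.5 CPM. Of 48 ERF and DREB genes 6 rose and 33 fell, 15 of them by at least 2-fold. ERF-1 had 411, 424 and 411 CPM in untreated seedlings and 166, 162 and 155 CPM with BL, and ERF6, a factor of oxidative stress and growth arrest, fell 3.33-fold. WRKY genes rose in 5 and fell in 27 of 49 cases. WRKY75, which acts in phosphate starvation and senescence, went from 108, 113 and 110.2 CPM to 20.7, 23.7 and 24.6 CPM, and WRKY33, a factor of defence against fungi, fell 1.71-fold. MYB genes rose in 7 (4 without untreated replicate 2) and fell in 23 of 53 cases, with 13 falls and 0 rises of at least 2-fold. MYB15, which activates lignin genes in defence, had 253, 244 and 254 CPM without and 65.9, 67.7 and 64.7 CPM with BL.

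Families of growth and light responses were more evenly divided between rises and falls than the stress families. Of all genes 27.7% were higher and 29.5% lower. Light and shade genes were called more often than that in both directions (39.7% and 39.7%) and MADS-box genes less often (13.0% and 17.4%). Of 35 tested bHLH genes 14 rose and 10 fell. HBI1 and BEE1, which promote elongation, rose 2.15-fold and 2.58-fold, and IBH1, an inhibitor of HBI1, fell 3.22-fold from 51.4, 53.0 and 54.7 CPM to 16.2, 15.1 and 18.1 CPM. Homeodomain genes rose in 18 and fell in 25 of 66 cases, and HB-2 (AT4G16780), a factor of shade responses, fell 2.35-fold. Light and shade genes rose in 25 and fell in 25 of 63. PKS4, which acts in phototropism, had 26.9, 27.7 and 25.2 CPM without and 66.3, 66.6 and 67.0 CPM with BL, and BBX14, a B-box factor gene, rose 2.59-fold. Among the phytochrome-interacting factors PIF7 fell (log2 -1.51 ± 0.11, SE) and PIF4 rose (log2 0.42 ± 0.04). TCP, GRF and growth regulator genes rose in 13 and fell in 10 of 37 cases (10 and 12 without BL replicate 3), PTF1 (TCP13) 1.65-fold lower. MADS-box genes rose in 3 and fell in 4 of 23 (6 and 4 with upper-quartile scaling), and the flowering activator gene AGL20 (SOC1) rose 1.58-fold from 20.7, 23.4 and 20.2 CPM to 33.6, 32.4 and 35.5 CPM.

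**Figure D4:**
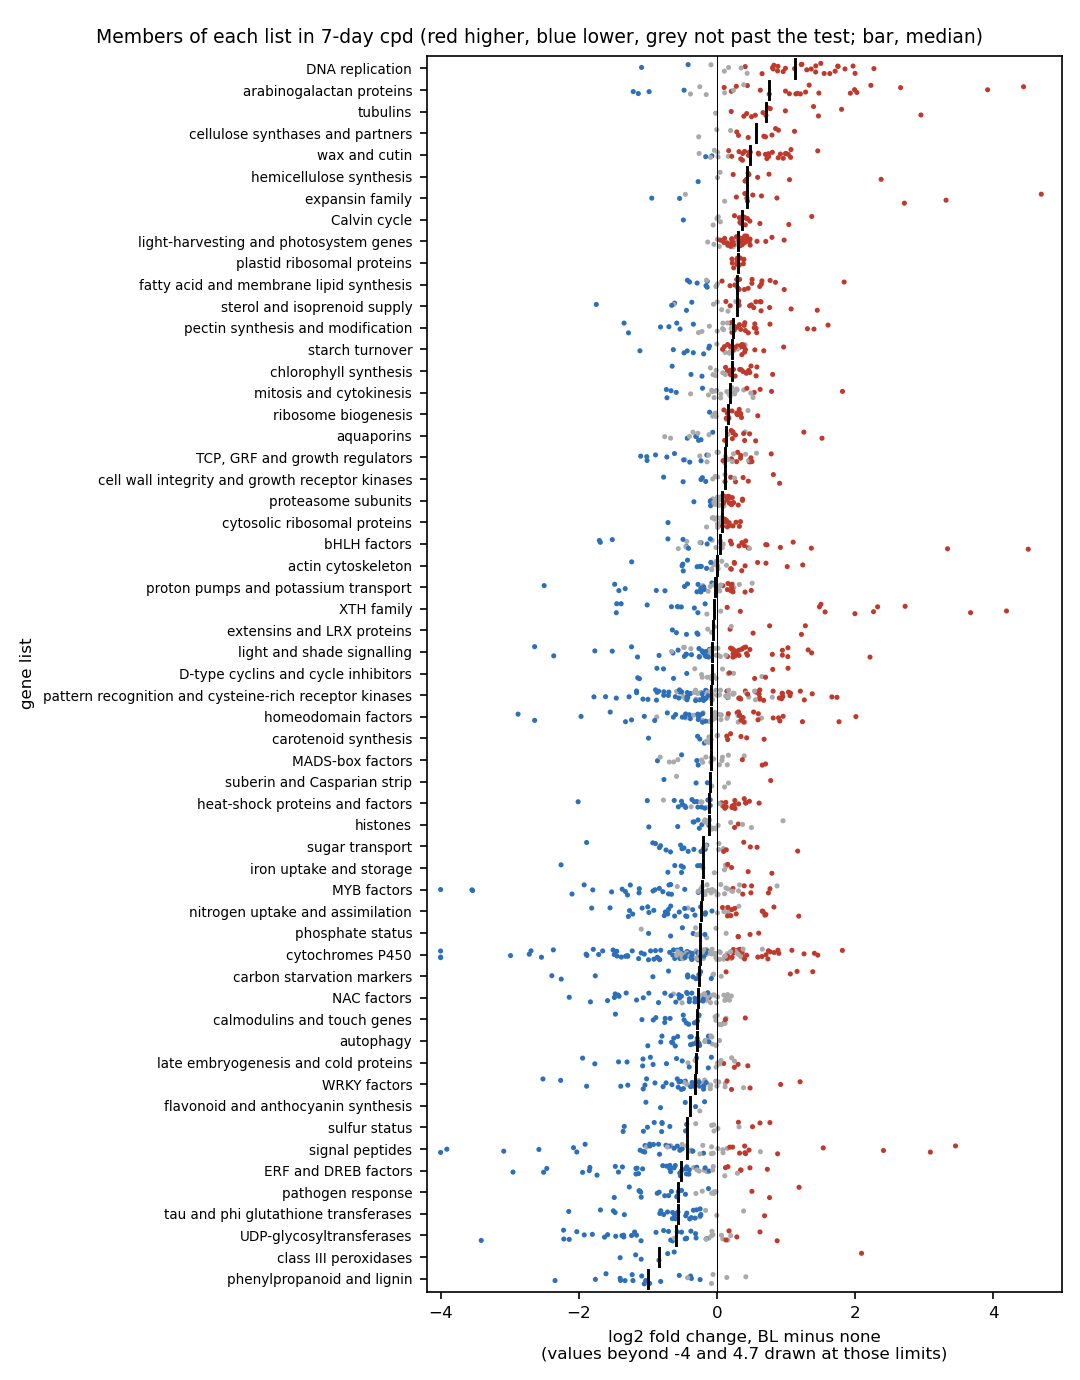
Log2 fold change with BL in 7-day cpd of every tested member of the 57 gene lists, ordered from the highest to the lowest list median (black bar), with red points for genes that rose, blue for those that fell and grey for those not past the test. DNA replication stands at the top with a median of 1.13 and phenylpropanoid and lignin at the bottom with -1.001.

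Calcium, cold and defence genes fell in most lists. Calmodulin and touch genes fell in 15 and rose in 3 of 25 cases (1 rise without untreated replicate 1 or 3). TCH3, a calmodulin-like touch gene, had 3269.9, 3297 and 3217 CPM without and 2420.4, 2412 and 2377 CPM with BL, and CML38 fell 2.12-fold. Late embryogenesis and cold genes fell in 15 and rose in 4 of 28, the dehydrin gene LTI30 from 137, 133 and 138 CPM to 50.4, 52.4 and 49.4 CPM and KIN2 from 943, 941 and 943 CPM to 599, 537 and 570.4 CPM. Heat-shock genes were divided, with 17 rises and 17 falls among 42 (40.5% each, against 27.7% and 29.5% of all genes). The abundant chaperone gene HSC70-1 rose 1.099-fold from 3495, 3533 and 3559.5 CPM to 3823, 3974 and 3838 CPM, and HSFB4 fell 4.02-fold from 7.49, 8.63 and 8.36 CPM to 1.75, 1.98 and 2.33 CPM. Pathogen response genes fell in 17 and rose in 3 of 26 cases, the salicylate biosynthesis gene EDS16 being one of the rises (2.28-fold).

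Of 95 tested pattern recognition and cysteine-rich receptor kinase genes 28 rose and 36 fell, against 27.7% and 29.5% of all genes. PEPR1, a receptor of danger peptides, went from 227, 237 and 220 CPM to 112, 116 and 114 CPM, and the precursor of such a peptide, PROPEP2, from 22.6, 22.6 and 27.9 CPM to 5.71, 5.71 and 6.48 CPM. Receptor-like protein (RLP) genes rose in 11 and fell in 12 of 38 cases, near the shares of all genes, RLP30 falling 2.41-fold. WAK2, a receptor kinase that binds pectin, had 13.3, 13.4 and 14.7 CPM without and 44.8, 48.5 and 45.0 CPM with BL. Cysteine-rich receptor kinase (CRK) genes rose in 14 and fell in 9 of 32 cases. Most of the rises lay in one gene row on chromosome 4 between AT4G23130 and AT4G23320, set apart after values were seen, where 11 of 18 tested CRK genes rose and 4 fell (median 0.62). CRK5 had 7.82, 7.02 and 8.46 CPM without and 16.8, 17.1 and 14.7 CPM with BL, and CRK10 19.7, 19.0 and 20.1 CPM and 36.8, 37.8 and 38.1 CPM. In the triple mutant 0 of these 18 genes rose and 10 fell (median -0.33), against 11.4% and 11% of all genes. Neighbouring CRK genes are similar in sequence, so counts of single members may be shared.

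Signal peptide genes fell in 26 and rose in 12 of 55 tested cases. RGF6 and RGF7, both of a family known to sustain the root meristem, moved apart, RGF6 from 1.81, 1.404 and 1.57 CPM to 17.7, 16.6 and 19.2 CPM and RGF7 from 13.6, 13.4 and 13.8 CPM to 1.60, 1.29 and 1.91 CPM. Genes of the list of wall integrity and growth receptor kinases rose in 7 and fell in 5 of 17 cases (41.2% and 29.4%). Of all genes 27.7% rose and 29.5% fell. The list also holds hormone and peptide receptors, BRI1 among them. THE1, which restrains growth when cellulose is short, rose 1.88-fold from 60.8, 52.4 and 53.7 CPM to 102, 108 and 105 CPM, and HERK2 of the same family rose 1.77-fold. BRI1, the receptor of the hormone, fell 1.71-fold from 164, 169 and 174 CPM to 96.0, 98.0 and 103 CPM.

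Loci of noncoding RNA were few. Of 9 MIR loci tested 4 rose and 1 fell. MIR162a (AT5G08185), whose mature product targets the transcript of DCL1, an enzyme of microRNA processing, had 4.94, 6.02 and 5.31 CPM without and 11.2, 11.95 and 11.8 CPM with BL (log2 1.11 ± 0.12, SE). MIR822, MIR850 and MIR824 rose by log2 1.87, 1.16 and 0.76, and MIR414 fell (log2 -0.94). These values count reads over the precursor loci, not mature microRNAs, and the MIR loci were chosen after their values were seen. None of 14 snoRNA loci passed edgeR's test, and 8 rose and 25 fell of 87 loci annotated as other noncoding RNA.

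Markers of further cell types were called about as often as all genes (57.3% in either direction). Root hair markers rose in 3 and fell in 1 of 7 tested cases, phloem markers in 2 and 4 of 11 and flower markers in 2 and 1 of 5, while neither of 2 tested trichome markers passed the test. Of root hair markers 7 were at 0 counts in all 6 libraries, among them EXPA18, RHS12 and RSL1, and 7 of 31 loci passed the filter. PLT2, a root meristem marker, was also at 0.

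To ask how much of this response needs the receptors, the BL effect was compared with that in the triple mutant. There 2098 genes (11.4%) were higher and 2018 (11%) lower with BL. The genotype difference passed the test for 3439 genes in the positive (18.7%) and 4097 in the negative direction (22.3%). Changes in the triple mutant were small, since 17 were higher and 20 lower under the test against a fold of 1.5. The largest positive difference among the genes named by fold was that of KDR, 5.61 ± 0.29 (SE, log2), which in the triple mutant fell (log2 -1.09 ± 0.25) from 2.78 ± 0.346 to 1.28 ± 0.348 CPM (mean ± SD, n = 3). HAT1 and GSTU19 also changed in opposite directions, HAT1 by -2.64 ± 0.07 in cpd and 0.25 ± 0.04 in the triple mutant. UGT73B4 fell in cpd and rose in the triple mutant, by 0.47 ± 0.05, with a difference of -3.88 ± 0.10 (edgeR's quasi-likelihood interaction test, adjusted p = 2.87e-46).

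Some groups moved in the same direction in both genotypes. Light-harvesting and photosystem genes rose in 37 of 45 cases in each genotype, with medians of 0.31 in cpd and 0.25 in the triple mutant, and the genotype difference was positive for 17 and negative for 5. LHB1B2 shows it, with log2 0.41 ± 0.02 and 0.41 ± 0.02 (SE) and a difference of 0.01 ± 0.03, which did not pass the interaction test of edgeR's quasi-likelihood fit (adjusted p = 0.891). EXPA10 and RNS1 were further examples, EXPA10 with -0.94 ± 0.06 and -0.75 ± 0.07 and RNS1, a ribonuclease gene, with -0.50 ± 0.05 and -0.55 ± 0.06. XTH genes, in contrast, rose in 12 and fell in 2 of 24 cases in the triple mutant, where XTH24 rose by 0.14 ± 0.02 instead of falling.

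**Figure D5:**
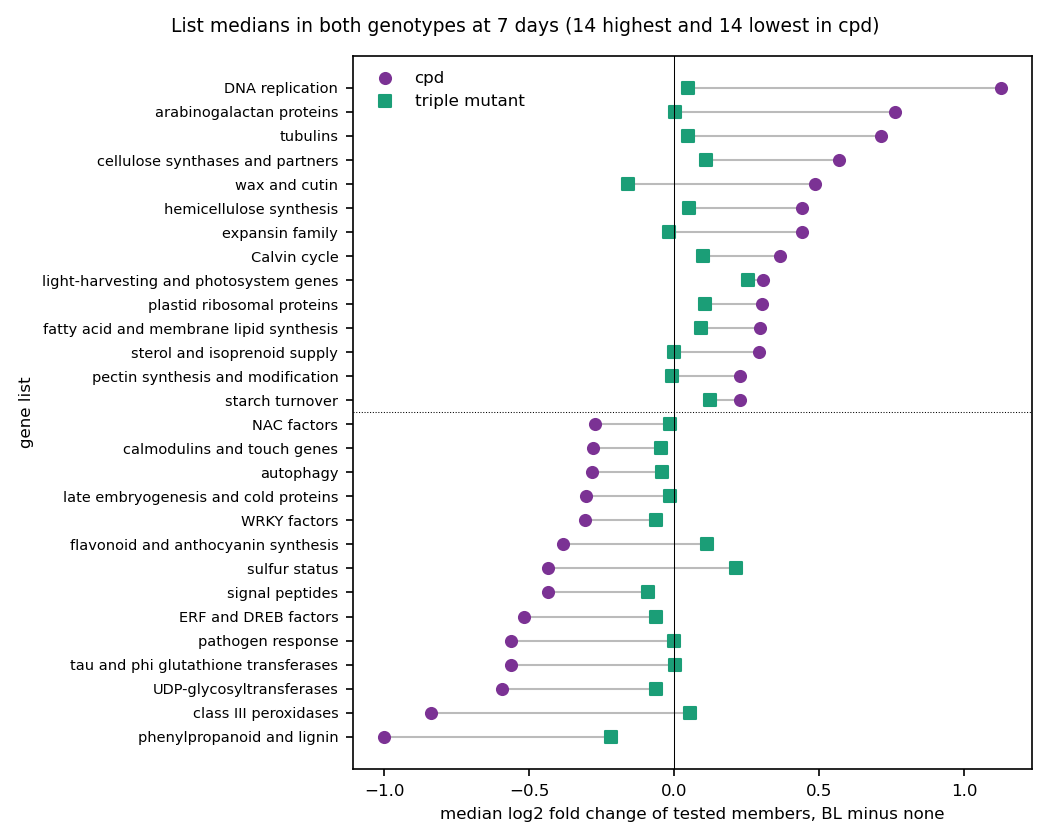
Median log2 fold change with BL of the tested members of 28 gene lists at 7 days, the 14 with the highest and the 14 with the lowest median in cpd, with circles for cpd and squares for the triple mutant. The triple mutant medians lie between -0.22 and 0.25, and those of light-harvesting genes nearly coincide (0.31 and 0.25).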

How the data were processed

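Per the labels' protocols, whole seedlings gave RNA by Trizol extraction for TruSeq libraries. The authors deposited whole-number read counts per locus, and the submitters' processing notes name HTSeq 0.9.1, HISAT2 2.1.0, Trimmomatic 0.36 and the TAIR10 build. Whether counting used strand was not stated, and overlapping and antisense genes cannot be told apart. The 12 libraries of 7-day seedlings (10180880 to 12531699 counts) were fitted together in edgeR 4.0.16 (R 4.3.3) with 1 mean per group, TMM factors and a minimum count of 10, and quasi-likelihood tests were adjusted by Benjamini-Hochberg over 18378 genes with a threshold of 0.05. The procedure was tested on simulated data. Those counts were drawn with the spread of the fit itself and with far fewer changed genes, so they do not check the calls made here. Floors are 3 counts, and intervals of count ratios are exact at 95%. Both cover counting error only. Of 32678 loci 31912 matched the RefSeq annotation of TAIR10.1 by locus tag and 10615 had a symbol. Promoter sequences were read from that assembly with its own annotation.

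The comparison and the gene lists were chosen with earlier results of these data known. The 20 largest rises and falls by fold and the 8 largest by level had a symbol, at least 5 CPM and groups that did not overlap. The 2 largest rises and falls without a symbol met the other conditions. The 4 largest genotype differences in each direction were taken from the genes named by fold. Up to 4 members of each list with the smallest adjusted p were named too, and these needed only to pass the test. Subgroups within lists, genes at or near 0 counts, and the further list members named (AGP, CESA, CRK, EXL, SMO, PIF and KRP genes, EXPA8, CTF18, SMT2, CER9, LACS4 and TUA1 among them) were chosen after their values were seen. A list holds only loci whose symbol or synonym matched its entries, so it need not cover a whole family. Some loci were left out of lists because their annotated product was not what the list names, partly after values were seen. Alternatives were other scalings, DESeq2 1.42.0, no filter or a minimum count of 50, the compared groups alone, a replicate block, a test against a fold of 1.5 and leaving out each library.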

Additional observations from a re-analysis of the deposited data

Results flagged for a closer look

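The response to BL differed between the genotypes by a test of the difference itself for each of 8 genes singled out for the size of that difference (edgeR's quasi-likelihood interaction test, largest adjusted p 1.79e-11). The 8 were taken from the genes named by fold with these same values, so passing the test adds no support. The difference, cpd minus triple mutant on the log2 scale, was 5.61 for KDR, 3.98 for RGF6, 3.94 for EXPA11 and 3.72 for AGP4. It was -6.78 for BR6OX2, -5.12 for DWF4, -4.90 for ROT3 and -4.83 for MYB55. In the triple mutant itself these genes changed by -1.09 ± 0.25 (KDR), -0.53 ± 0.30 (RGF6), -0.62 ± 0.40 (EXPA11) and 0.72 ± 0.26 (AGP4), and by -0.32 ± 0.04 (BR6OX2), -0.34 ± 0.06 (DWF4), -0.43 ± 0.07 (ROT3) and -0.13 ± 0.12 (MYB55), as log2 ± SE.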

How the results depend on the processing

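Testing against a fold of 1.5 in place of any change left 668 genes higher and 1246 lower in cpd, 500 positive and 920 negative genotype differences, and 17 higher and 20 lower genes in the triple mutant. With a minimum count of 50, 327 genes were at least 2-fold higher in cpd against 508, fewer genes being tested. DESeq2 called 1179 genes higher and 1340 lower in the triple mutant, and the cause was not tested. In cpd, upper-quartile scaling gave 6258 higher and 4487 lower genes, DESeq2 4136 and 4604, and no filter 5132 and 5396. Leaving out 1 cpd library at a time gave 4642 to 4871 higher and 4993 to 5169 lower genes, 515 to 554 and 885 to 929 at least 2-fold. The genotype differences ranged over 3192 to 3422 positive and 3788 to 3997 negative calls without 1 library, and the triple mutant counts over 1695 to 1736 and 1626 to 1750. Same-numbered libraries deviated together with correlations of only -0.05 to 0.06, which shows no pairing by number. As cpd replicates differed little more than counting error gives, this check could not exclude a pairing. With the replicate block 5117 genes were higher and 5426 lower. The 257 named genes kept their direction under each alternative that tested them (253 with a minimum count of 50), and 85 did not pass the test against 1.5-fold. Counts of list members stayed within 1.5 times for 102 to 114 of 114 counts, except 18 under the test against 1.5-fold. With the loci left out by product kept in, 103 did, an alternative chosen after seeing the data. In the promoter window of 250 bases alone, the E-box was in 23.2% of the promoters of rising genes and the response element in 12.1% of those of falling genes, also chosen after seeing the data.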
